A study of Mus musculus with 4 samples.

Results

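The 10 genes described here, Lgr5, Olfm4, Ascl2, Smoc2, Axin2, Rnf43, Znrf3, Sox9, Lrig1 and Tnfrsf19, mark the stem cells at the base of intestinal crypts or are transcribed in response to Wnt signaling. They were chosen by gene symbol, each matched 1 row of the deposited table of 56748 genes, and all 10 were among the 16094 genes with enough reads to be tested. The small intestine (SI) of 2 p53+/+ (WT) mice and 2 p53-/- mice was sequenced at day 1 post 12 Gy total-body irradiation (TBI) from a Cs-137 source. The p53-/- mice were a p53-deficient strain from the Jackson Laboratory, per the study's methods. These describe the mice as 8 to 12 weeks old and matched for age and gender. All 4 libraries came from irradiated mice, so the comparison is between genotypes after TBI and holds no unirradiated level. The question it addresses is how loss of p53 alters stem cell transcripts shortly after radiation.

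Wnt ligands bind Frizzled and LRP receptors and stabilize beta-catenin, which enters the nucleus and activates transcription with TCF/LEF factors. In crypts, R-spondins bind LGR receptors and remove the ubiquitin ligases RNF43 and ZNRF3 that would otherwise clear Frizzled from the cell surface, and this signal maintains the Lgr5+ crypt base columnar cells that renew the epithelium. Ascl2 is a transcription factor of these cells, Smoc2 and Olfm4 are secreted proteins made by them, and Axin2, Rnf43 and Znrf3 are induced by Wnt signaling and restrain it. Olfm4 is also known as a gene that depends on Notch signaling in crypts.

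The promoters of Olfm4, Ascl2 and Axin2 are shown because these genes had the largest positive difference, the largest negative difference and the highest p53+/+ level per length of the 10, and the second start of Tnfrsf19 because it held matches to 2 motifs. Each is the 250 bases before a start annotated by RefSeq on GRCm38.p6, 5′ to 3′ on the strand of the gene, with motif matches in capitals. RefSeq promoters were found for 6 of the 10 genes, with 8 windows in all. The Olfm4 window lies at chr14:80000052-80000301 (plus strand), that of Ascl2 at chr7:142969265-142969514 (minus strand), that of Axin2 at chr11:108920099-108920348 (plus strand) and that of Tnfrsf19 at chr14:61037988-61038237 (minus strand).
Olfm4: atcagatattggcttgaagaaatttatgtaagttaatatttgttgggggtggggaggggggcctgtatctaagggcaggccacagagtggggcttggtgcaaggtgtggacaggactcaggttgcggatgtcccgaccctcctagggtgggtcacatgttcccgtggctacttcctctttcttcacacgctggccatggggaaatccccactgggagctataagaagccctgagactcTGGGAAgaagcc
Ascl2: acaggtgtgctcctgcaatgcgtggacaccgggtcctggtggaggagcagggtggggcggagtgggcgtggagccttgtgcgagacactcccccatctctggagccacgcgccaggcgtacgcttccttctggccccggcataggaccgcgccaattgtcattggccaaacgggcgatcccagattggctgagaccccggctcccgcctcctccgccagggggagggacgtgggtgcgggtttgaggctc
Axin2: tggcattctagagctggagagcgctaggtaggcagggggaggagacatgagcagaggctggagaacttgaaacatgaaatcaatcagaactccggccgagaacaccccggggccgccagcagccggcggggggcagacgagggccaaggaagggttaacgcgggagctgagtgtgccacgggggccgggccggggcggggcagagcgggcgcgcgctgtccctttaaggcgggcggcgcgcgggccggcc
Tnfrsf19: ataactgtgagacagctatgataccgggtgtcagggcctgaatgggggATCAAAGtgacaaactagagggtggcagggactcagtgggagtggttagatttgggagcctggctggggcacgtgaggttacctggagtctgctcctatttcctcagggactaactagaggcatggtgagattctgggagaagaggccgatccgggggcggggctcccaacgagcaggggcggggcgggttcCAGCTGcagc
Searched on both strands were TGGGAA, the core bound by the Notch effector RBPJ, and CAGCTG, an E-box bound by ASCL factors. The core of TCF/LEF sites was searched as CTTTGAA or CTTTGAT, and also as CTTTGTA or as CTTTGTT. The Olfm4 window held TGGGAA, starting 12 bases before the start site, and 21.6% of 32851 promoter windows of the same length held it. The Tnfrsf19 window held CAGCTG 10 bases before the start site and a TCF/LEF core on the opposite strand, read as ATCAAAG, 202 bases before it. These motifs occurred in 13.0% and 14.8% of all windows. None of the 3 motifs was found in the windows of Ascl2, Axin2, Rnf43 (2 windows), Lrig1 and the other Tnfrsf19 start. These matches describe the letters of the windows and say nothing of binding.

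The libraries, named 7 and 8 (p53+/+) and 9 and 10 (p53-/-) after the columns of the table, held between 15005479 and 22173164 counts. Trp53 was at 57.7 and 47.1 CPM (counts after scaling by edgeR's TMM factors, which set the libraries on 1 scale) in p53+/+ and at 19.8 and 22.5 CPM in p53-/- libraries. Phlda3, a p53 target, was at 87.3 and 91.9 against 1.93 and 1.54 CPM, which separates the genotypes as labelled. All 9 epithelial and all 9 Paneth cell markers were detected in every library, and the ileal bile acid binding gene Fabp6 was at 1639 to 5484 CPM. Both p53-/- libraries held more T cell markers and fewer epithelial markers than both p53+/+ libraries. Library 8 stood apart by 4511 summed CPM of smooth muscle and glia markers, against 483 to 998 in the other 3 libraries. Library 10 stood apart by 614 summed CPM of B cell and follicle markers, against 24.01 to 75.1, and by 588 counts of Xist, against 0 to 4. Xist, a marker of sex, thus differed between the p53-/- libraries. The study's reporting summary does not indicate sex, and the part of sex in the results was not tested. Library 7 held 195 summed CPM of stromal markers, against 666 to 923 in the other 3. Reads of the ribosomal RNA gene Rn18s-rs5 took 0.296 and 0.473% of counts in p53+/+ and 0.863 and 4.59% in p53-/- libraries, and their part in the results was not tested. Where leaving out 1 library moved a list's median by over 1.5 times or turned its sign, the median without it is given.

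**Figure D1:**
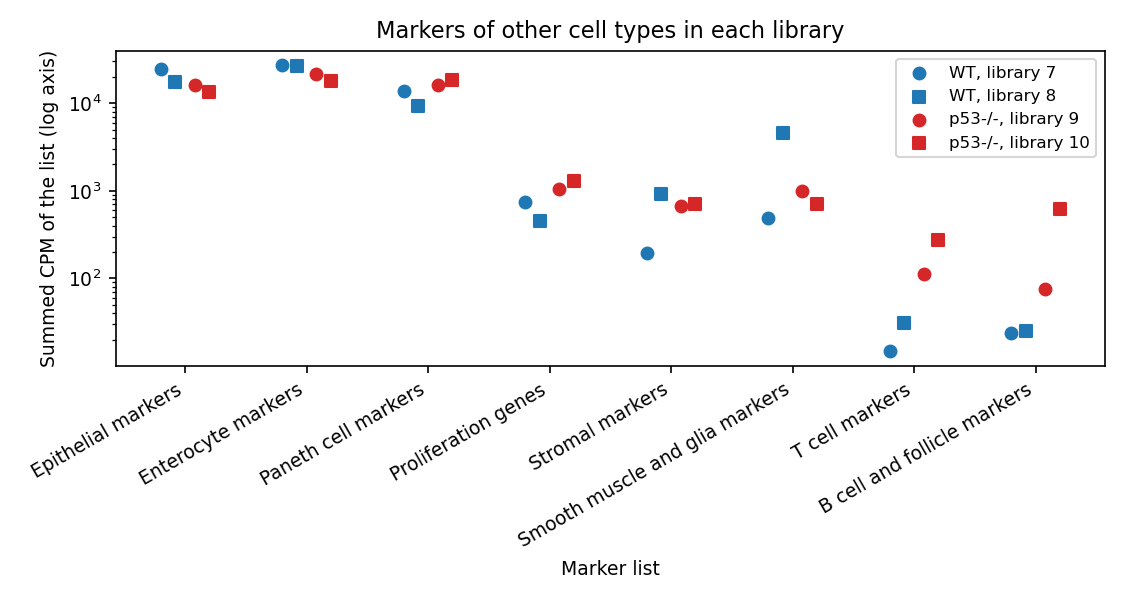
Summed CPM (log axis) of 8 marker lists in the 2 WT (blue) and 2 p53-/- (red) libraries, 1 point per library. Smooth muscle and glia markers reach 4511 CPM in library 8, T cell markers are higher in both p53-/- libraries (111 and 273 CPM against 14.7 and 30.9), and B cell and follicle markers reach 614 CPM in library 10.

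Of the 10 genes, Olfm4 alone differed in level by several fold between genotypes. Its level was 15.7-fold higher in the p53-/- SI, while Lgr5 and Znrf3 were 1.6-fold higher, Smoc2 1.39-fold higher and Ascl2 at 0.567 of its p53+/+ level, with intervals that reached across no change for these 4. No gene of the 10 passed an adjusted p of 0.05 in edgeR (quasi-likelihood F test, Benjamini-Hochberg adjusted over 16094 genes), where 79 genes passed (0.491%). At an unadjusted p under 0.05, 1 of the 10 (Olfm4) was higher and 0 were lower, against 10% higher and 7.92% lower among all genes tested. With DESeq2, 1 of the 10 (Olfm4) passed the adjusted threshold, against 8.54% of 16105 genes with an adjusted p. For 4 of the 10 (Lgr5, Olfm4, Smoc2, Znrf3) the lower p53-/- library exceeded the higher p53+/+ library, against 26.4% of all genes tested, and for 2 (Ascl2, Rnf43) the reverse held, against 24.4%. The median log2 fold change of the 10 was 0.05, beside -0.01 over all genes tested, with 6 genes positive and 4 negative. With 1 library left out, the median of the 10 was -0.06 without library 7, 0.37 without library 8, -0.06 without library 9 and 0.22 without library 10, so that its sign rests on single libraries. These p-values rest on 2 libraries per genotype. In edgeR the spread of each gene (2 residual degrees of freedom) was moderated by that of other genes (3.45 prior degrees of freedom).

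**Figure D2:**
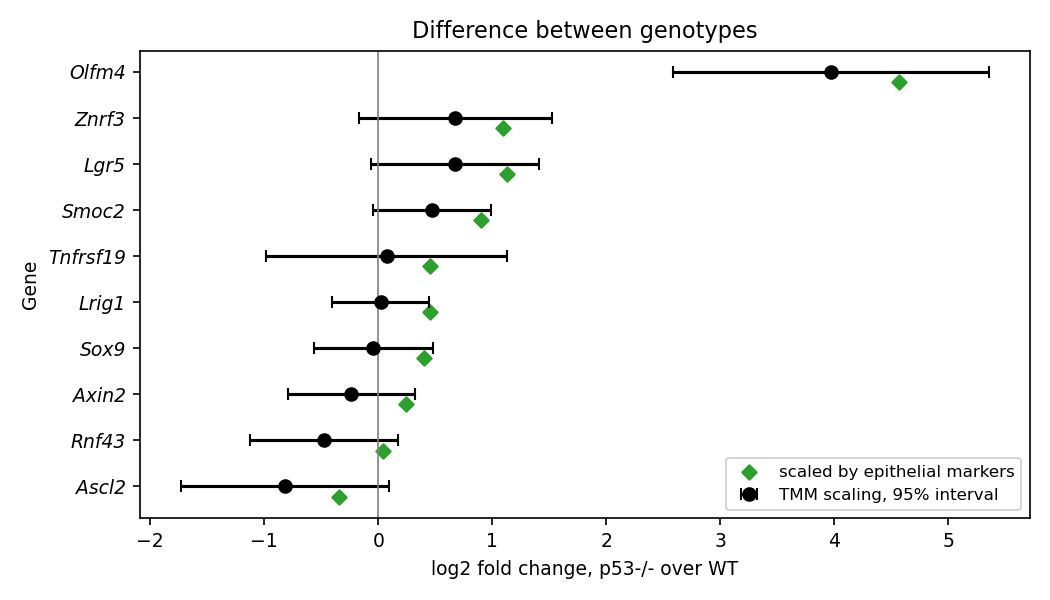
Log2 fold change of each gene, p53-/- over WT, with its 95% interval from edgeR (black, 2 against 2 libraries) and the same difference after scaling by epithelial markers (green). The interval of Olfm4 runs from 2.58 to 5.36, and the intervals of the other 9 genes include 0.

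Olfm4 (ENSMUSG00000022026), which encodes the secreted glycoprotein olfactomedin 4, was counted 769 and 246 times in the p53+/+ libraries and 10802 and 10559 times in the p53-/- libraries. In CPM these levels were 47.6 and 16.0 in p53+/+ and 473 and 525 in p53-/-. Both p53-/- libraries were far above both p53+/+ libraries, and the spread was wider within p53+/+ (2.98-fold between its libraries) than within p53-/- (1.11-fold). The means were 31.8 ± 22.4 and 499 ± 36.6 CPM (SD, n = 2 each), a log2 fold change of 3.97 (SE 0.55, 95% interval 2.58 to 5.36), or 15.7-fold (5.996 to 41.1). Its p from edgeR was 0.000566 before and 0.0587 after adjustment, just over the threshold, while DESeq2 gave an adjusted p of 1.64e-16 and edgeR's likelihood ratio test 1.10e-09. By signed log2 fold change it ranked 196 from the top of 16094 genes. Over all alternatives the adjusted p ranged from 5.11e-46 with no filter on low counts to 0.373 without library 10, and the log2 fold change from 3.38 without library 8 to 4.97 without library 7. Without library 10, the p53-/- library with B cell markers and Xist, the log2 fold change was 3.96, so the size of the difference was as large in library 9 alone.

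Olfm4 is also made by neutrophils, whose markers were therefore listed after its values were seen. Of 11 neutrophil markers, Ngp and Elane were at 0 counts in all 4 libraries and Ltf and S100a9 alone had enough counts to be tested. The summed level over the list was 3.09 and 3.83 CPM in p53+/+ and 7.54 and 8.56 CPM in p53-/- libraries. Most of each sum was Ltf, at 2.97 and 3.44 CPM in p53+/+ and at 5.48 and 6.96 CPM in p53-/- libraries. The p53-/- sums were above the p53+/+ sums, and the part of neutrophils in the Olfm4 level was not tested. Markers of gut segment also differed between the libraries, with Fgf15, an ileal hormone, at 55.5 and 19.7 CPM in p53+/+ and at 4.56 and 6.62 CPM in p53-/- libraries, and their part in the Olfm4 level was not tested. In the bulk SI, more cells with a transcript and more transcript per cell cannot be told apart, for Olfm4 and for every gene below.

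**Figure D3:**
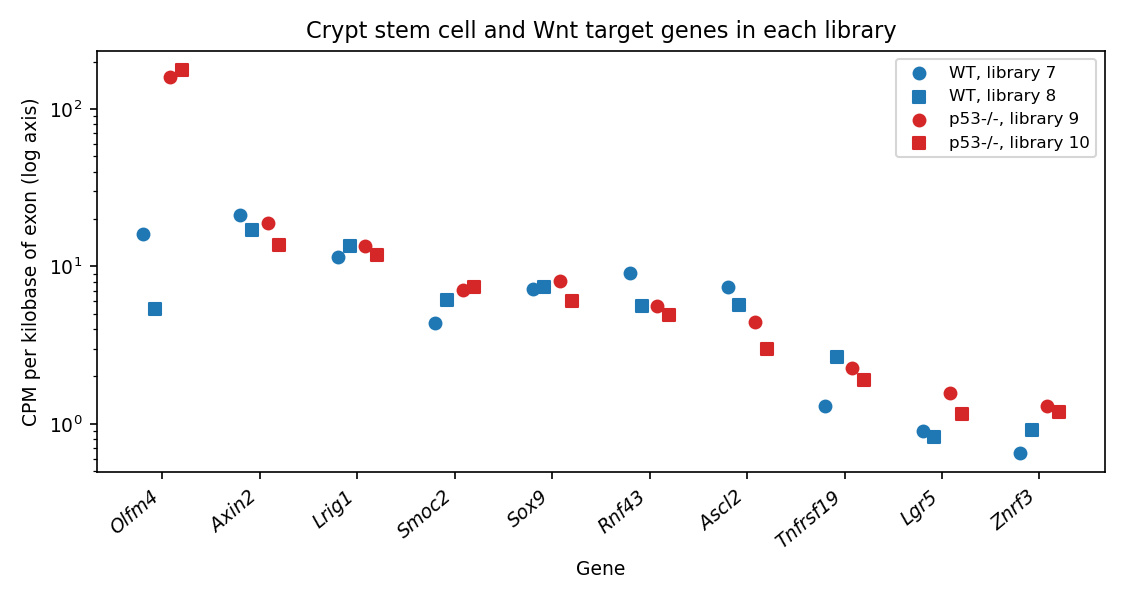
Level of each of the 10 genes in CPM per kilobase of exon (log axis), 1 point per library, WT in blue and p53-/- in red, ordered by the p53-/- mean. Olfm4 moves from 5.39 and 16.1 in WT to between 160 and 177 in p53-/- libraries, and the other genes differ less between genotypes. Among these, Lgr5, Smoc2, Znrf3, Ascl2 and, narrowly, Rnf43 show no overlap between genotypes, and Tnfrsf19 spreads from 1.29 to 2.64 within WT.

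Lgr5 (ENSMUSG00000020140), the R-spondin receptor that defines crypt base columnar cells, was at 9.22 and 8.43 CPM in p53+/+ and at 16.2 and 11.9 CPM in p53-/- libraries. The genotypes did not overlap, but the p53-/- libraries differed from each other by 1.36-fold. The log2 fold change was 0.67 (95% interval -0.07 to 1.41, edgeR adjusted p = 0.316), and it ranged from 0.43 without library 9 to 0.93 without library 10. Smoc2, a secreted matrix protein of crypt base cells that fibroblasts can also make, was at 30.2 and 42.5 CPM in p53+/+ and at 49.6 and 51.3 CPM in p53-/- libraries. Its log2 fold change was 0.47 (-0.05 to 0.99, edgeR adjusted p = 0.315). It was 0.73 without library 8, in which smooth muscle markers were high, and 0.26 without library 7, which was lowest in both stromal markers and Smoc2. The part of these cells in the Smoc2 level was not tested.

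Ascl2 (ENSMUSG00000009248), the transcription factor on which the Lgr5+ state depends, lay on the other side of 0. It was at 12.0 and 9.28 CPM in p53+/+ and at 7.23 and 4.82 CPM in p53-/- libraries, again without overlap. The log2 fold change was -0.82 (-1.73 to 0.09, edgeR adjusted p = 0.320), and it stayed negative without each library in turn (-1.15 to -0.50). Tnfrsf19, the receptor TROY of crypt base cells and a Wnt target, was at 6.13 and 12.5 CPM in p53+/+ and at 10.7 and 9.003 CPM in p53-/- libraries, which lay inside the p53+/+ range. Its log2 fold change was 0.08 (-0.98 to 1.13), and it was 0.68 without library 8, -0.34 without library 7 and -0.05 without library 9, so its sign rests on single libraries.

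The stem cell transcripts also stood in other proportions to each other in the p53-/- libraries. Per length of exon, Olfm4 stood at 17.9 and 6.56 times the Lgr5 level in p53+/+ libraries and at 101 and 153 times in p53-/- libraries. The Lgr5 level was 0.121 and 0.144 of the Ascl2 level in p53+/+ and 0.355 and 0.391 in p53-/- libraries. Olfm4 was at 2.17 and 0.943 times Ascl2 in p53+/+ and at 35.9 and 59.7 times in p53-/- libraries. In these 3 ratios the genotypes did not overlap, and each gave a p of 0.333 in a two-sided exact permutation test. That is the smallest p that 2 against 2 libraries allow, and any ratio without overlap gives it. The test therefore adds nothing to the lack of overlap. These ratios restate the differences of Olfm4, Lgr5 and Ascl2 given above and are not separate results. Smoc2 per Lgr5 did overlap, at 4.84 and 7.44 in p53+/+ and at 4.52 and 6.35 in p53-/- libraries (exact permutation p = 0.667). Adjusted over the 5 ratios computed here, the exact permutation p of 0.333 became 0.417, so that none of these separations can pass a threshold at this number of libraries. Because a ratio is formed within a library, it does not depend on how libraries were scaled.

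The Wnt feedback genes lay on both sides of 0. Axin2, the scaffold that rebuilds the beta-catenin destruction complex and the usual readout of Wnt signaling, was at 117 and 93.9 CPM in p53+/+ and at 103 and 75.6 CPM in p53-/- libraries. The genotypes overlapped, with a log2 fold change of -0.24 (95% interval -0.80 to 0.33, edgeR adjusted p = 0.656). Without library 10 it was 0.03. Rnf43 was at 59.2 and 36.7 CPM in p53+/+ and at 36.7 and 32.3 CPM in p53-/- libraries, so that library 8 and library 9 lay at the same level to 3 digits. Its log2 fold change was -0.48 (-1.13 to 0.17, edgeR adjusted p = 0.413), and without library 7 it was -0.08.

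Znrf3, the paralog of Rnf43 with the same role at the receptor, was at 5.14 and 7.20 CPM in p53+/+ and at 10.3 and 9.45 CPM in p53-/- libraries. Its log2 fold change was 0.68 (-0.17 to 1.52, edgeR adjusted p = 0.375), of opposite sign to that of Rnf43. The per-length ratio of Znrf3 to Rnf43 was 0.0721 and 0.163 in p53+/+ and 0.232 and 0.243 in p53-/- libraries, without overlap (exact permutation p = 0.333). Rnf43 was the more abundant of the pair per length in every library.

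Sox9 and Lrig1 showed the smallest differences. Sox9, a transcription factor of crypt progenitors and Paneth cells, was at 29.7 and 30.6 CPM in p53+/+ and at 33.4 and 25.1 CPM in p53-/- libraries, with a log2 fold change of -0.04 (95% interval -0.56 to 0.48). Its sign turned under 6 of 13 alternatives. Lrig1, an inhibitor of ErbB signaling that marks crypt progenitors, was at 64.0 and 75.4 CPM in p53+/+ and at 75.0 and 66.3 CPM in p53-/- libraries, with a log2 fold change of 0.02 (-0.40 to 0.44). For both genes the p53-/- libraries reached to either side of, or lay within, the p53+/+ range, and differences of more than about 1.5-fold lie outside the intervals.

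The order of the 10 genes by level per kilobase of exon was led in p53+/+ by Axin2 (19.1 CPM per kb), ahead of Lrig1 (12.5) and Olfm4 (10.7). Rnf43 (7.32), Sox9 (7.29), Ascl2 (6.56) and Smoc2 (5.23) followed, each with a range that overlapped its neighbour in the order, from Lrig1 down to Smoc2. Tnfrsf19 (1.97) lay clear of both Smoc2 above it and Lgr5 below it, and Lgr5 (0.860) and Znrf3 (0.782) overlapped at the bottom. In p53-/- the order was led by Olfm4 (168.6 CPM per kb), clear of Axin2 (16.3) and Lrig1 (12.7). Smoc2 (7.26) and Sox9 (7.08) overlapped next, ahead of Rnf43 (5.26), Ascl2 (3.71) and Tnfrsf19 (2.07). Lgr5 (1.37) and Znrf3 (1.25) overlapped again at the bottom. Reads of overlapping genes could have been counted with 3 of the 10: Olfm4 shares 153 exonic bases with Gm6999 on its own strand, Axin2 shares 209 with Gm11670 and Lrig1 shares 144 with Slc25a26, the latter 2 on the opposite strand.

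Epithelial markers were lower in both p53-/- libraries (summed 16124 and 13335 CPM against 24515 and 17612), and crypt genes are made in the epithelium. Scaling the libraries by the 9 epithelial markers moved the median log2 fold change of all genes to 0.46, and the values that follow are to be read against that shift. On this scale Olfm4 was 4.57 higher in p53-/- (edgeR adjusted p = 0.0126), the one gene of the 10 past the threshold. Lgr5 was at 1.13 (adjusted p = 0.213), Znrf3 at 1.10, Smoc2 at 0.90, Lrig1 at 0.46, Tnfrsf19 at 0.45 and Sox9 at 0.40. Axin2 (0.24) and Rnf43 (0.04) turned positive, and Ascl2 (-0.34) remained the one negative value. Over all genes the split of calls moved from 48 higher and 31 lower to 131 higher and 15 lower.

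Other genes of crypt base cells also lay on both sides of 0. Of 19 tested, 12 had a positive and 7 a negative log2 fold change with a median of 0.15, and 0 passed the adjusted threshold in edgeR. At an unadjusted p under 0.05, 4 were higher and 2 lower, and DESeq2 called 3 higher and 1 lower. For this list and those below, the shares over all genes tested were 10% higher and 7.92% lower at that unadjusted p in edgeR. DESeq2 called 8.54% of 16105 genes in either direction. Aqp4, a water channel of crypt cells, was at 10.2 and 6.29 CPM in p53+/+ and at 42.9 and 32.4 CPM in p53-/- libraries, a log2 fold change of 2.19 (edgeR adjusted p = 0.0602). Mex3a, an RNA-binding protein of slowly dividing Lgr5+ cells, had a log2 fold change of 1.46 at a low level (1.24 and 0.908 against 2.76 and 3.18 CPM). The chloride cotransporter gene Slc12a2 (0.16) and Vdr (-0.01), the most abundant of the list, lay near 0. Chosen after their values were seen were the genes besides Aqp4 that DESeq2 called in this list. Prom1 was at 85.2 and 67.2 against 193 and 154 CPM, and Soat1 at 14.2 and 15.8 against 30.9 and 35.5 CPM. The protease gene Prss23 was lower, at 181 and 177 against 85.8 and 85.5 CPM. In Aqp4, Prom1, Soat1 and Prss23, as in Olfm4 and Ascl2, the genotypes did not overlap, with stem cell genes on both sides of 0. Of the 19 tested, 7 were higher and 5 lower without overlap. Lack of overlap was common, with 26.4% of all genes tested higher and 24.4% lower in both p53-/- libraries.

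Genes of reserve or injury-induced stem cells had a median of -0.45 over 8 tested, 6 of them negative, with 0 past the threshold in edgeR, 1 higher and 2 lower at an unadjusted p under 0.05 and 0 higher and 2 lower with DESeq2. Krt19, the most abundant of the list and also an epithelial marker, was at 2696 and 2114 against 1625 and 1360 CPM (log2 fold change -0.69, edgeR adjusted p = 0.311). Tert, the telomerase catalytic subunit, was at 4.83 and 5.90 CPM in p53+/+ and at 1.05 and 1.59 CPM in p53-/- libraries (log2 fold change -2.02, edgeR adjusted p = 0.129). Clu, the marker of revival stem cells, was at 12.8 and 32.5 CPM in p53+/+ and at 14.8 and 362 CPM in p53-/- libraries, so that library 10 alone was high. Its log2 fold change of 3.06 became -0.58 without library 10, the library with 614 summed CPM of B cell and follicle markers, and the part of those cells in it was not tested.

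**Figure D4:**
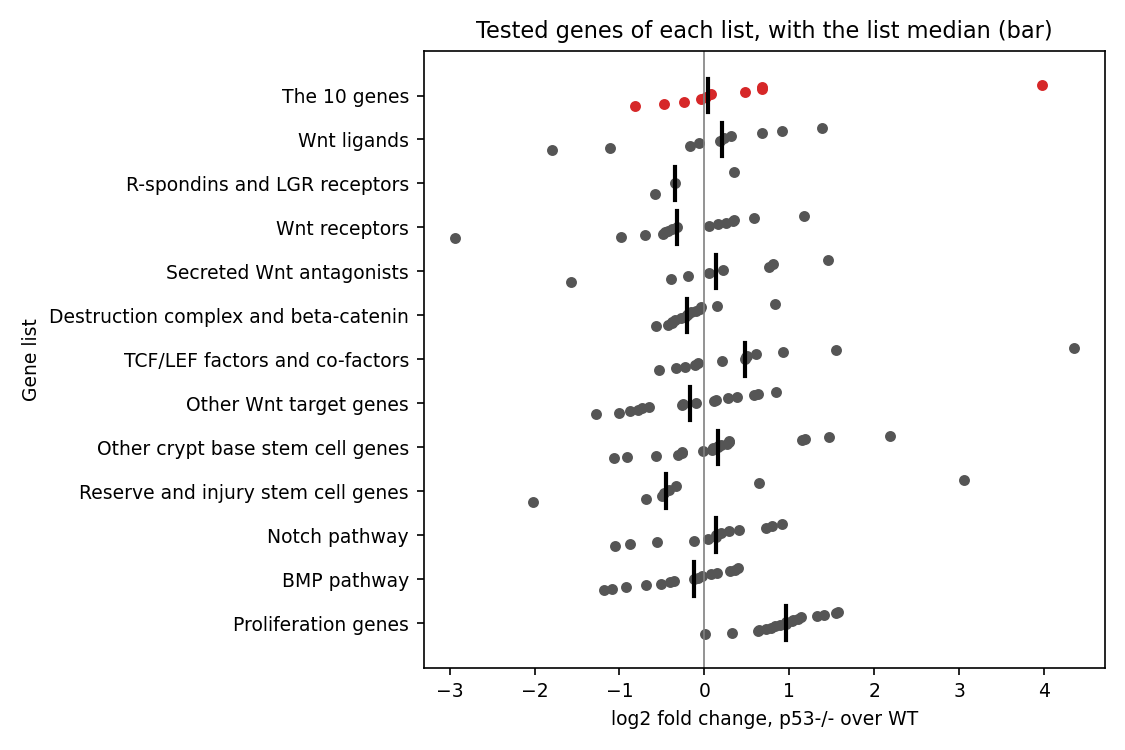
Log2 fold change, p53-/- over WT, of the tested genes of each list, 1 point per gene, with the median of the list as a bar. The 10 genes (red) have a median of 0.05 with Olfm4 far to the right at 3.97, the proliferation genes have a median of 0.96 with all 18 above 0, and the Wnt pathway lists lie on both sides of 0.

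Upstream of the target genes, the lists of Wnt pathway genes had medians on both sides of 0, and 0 genes of any of its lists passed the adjusted threshold in edgeR. Of 19 Wnt ligand and secretion genes, 10 were tested, with a median of 0.21, 1 higher and 1 lower at an unadjusted p under 0.05 and 0 with DESeq2. The median was -0.32 without library 7, 0.62 without library 8 and 0.12 without library 9. Wls, which carries Wnt proteins to the cell surface, was at 39.0 and 43.7 against 44.4 and 34.6 CPM, Wnt5a had a log2 fold change of 0.31 (-0.30 to 1.43 with each library left out), Wnt6 of -1.11 and Wnt9a of -1.79. Chosen after its values were seen, Wnt3, the Wnt ligand of Paneth cells, was at 8.29 and 5.51 CPM in p53+/+ and at 13.1 and 12.9 CPM in p53-/- libraries (log2 fold change 0.91, edgeR adjusted p = 0.242). The 9 Paneth cell markers had a median of 0.58 beside it (0.36 without library 8), 7 positive and 2 negative. In edgeR 0 of them passed the adjusted threshold. Mmp7 had the largest difference among them, at 157 and 112 against 284 and 257 CPM. The most abundant, Lyz1, had a log2 fold change of 0.57 (edgeR adjusted p = 0.542). The part of Paneth cells in the Wnt3 level was not tested.

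Of the R-spondins and LGR receptors, 3 of 6 were tested. Lgr4, the close relative of Lgr5 that is made throughout the crypt, was at 164 and 114 CPM in p53+/+ and at 198 and 154 CPM in p53-/- libraries, which overlapped (log2 fold change 0.34), and Rspo3 was at -0.34, with a range from -1.08 to 1.23 when each library was left out. The 15 Wnt receptors had a median of -0.33 (0.11 without library 8 and -0.18 without library 10), with 0 higher and 3 lower at an unadjusted p under 0.05 and 0 with DESeq2. Fzd5, the abundant Frizzled of the list, was at 125 and 135 against 147 and 123 CPM, Lrp5 was at 166 and 143 against 126 and 104 CPM, Fzd8 had a log2 fold change of -0.98 and Fzd3 of 1.17. Of 15 secreted antagonists 8 were tested, with a median of 0.14 (-0.36 without library 7, 1.58 without library 8 and 0.32 without library 9), 1 higher and 1 lower at an unadjusted p under 0.05 and 1 lower with DESeq2. Apcdd1, a Wnt inhibitor that binds ligand and receptor and is itself a Wnt target, was at 10.8 and 7.72 CPM in p53+/+ and at 3.55 and 2.64 CPM in p53-/- libraries (log2 fold change -1.58, edgeR adjusted p = 0.145). Dkk3 (0.22), Kremen1 (-0.19) and Sfrp1 (0.81) overlapped between genotypes, and with each library left out Dkk3 ran from -0.49 to 1.71 and Sfrp1 from 0.06 to 2.47.

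Within the cell, 13 of 15 genes of the destruction complex and beta-catenin had a negative log2 fold change (median -0.21), against 8165 of 16094 among all genes tested. At an unadjusted p under 0.05, 0 were higher and 2 lower, with 0 called by DESeq2. Ctnnb1, which encodes beta-catenin, was at 1304 and 1038 CPM in p53+/+ and at 987 and 755 CPM in p53-/- libraries (log2 fold change -0.43, edgeR adjusted p = 0.497). Csnk1a1 (-0.35) and Gsk3a (-0.57), kinases that mark beta-catenin for removal, lay on the same side and Amer1 (0.83) on the other. The signs depended on the scaling. Scaled by epithelial markers, the median of this list turned positive at 0.27, with Ctnnb1 at 0.05, Csnk1a1 at 0.13 and Gsk3a at -0.07. The median over all genes was 0.46 on that scale, so that under both scalings the median of the list lay below that of all genes. Without library 10 the median was -0.11.

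The TCF/LEF factors and their co-factors had a median of 0.48 over 13 genes (-0.05 without library 7 and 0.24 without library 9), with 4 higher and 1 lower at an unadjusted p under 0.05 and 2 higher with DESeq2. Tcf7 was at 6.50 and 7.53 CPM in p53+/+ and at 11.9 and 29.3 CPM in p53-/- libraries. Lef1 was at 0.124 and 0.130 CPM in p53+/+ and at 1.31 and 4.13 CPM in p53-/- libraries (edgeR adjusted p = 0.106), from 2 counts in each p53+/+ library, which are too few for a fold change. Both are also transcription factors of T cells, and the summed T cell markers were 14.7 and 30.9 CPM against 111 and 273 CPM in the same libraries, with 10 of 10 higher at an unadjusted p under 0.05. The part of T cells in Tcf7 and Lef1 was not tested. Among co-factors, Bcl9 was at 24.9 and 30.2 against 63.7 and 41.2 CPM (log2 fold change 0.93), the repressor gene Tle4 was 0.50 higher and Tle3 was at -0.54.

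The other 16 Wnt target genes had a median of -0.17 (0.11 without library 7, -0.07 without library 8 and -0.05 without library 10), with 1 higher and 3 lower at an unadjusted p under 0.05 and 0 higher and 2 lower with DESeq2. Ephb3, the receptor that holds Paneth cells at the crypt base, was the higher gene at 16.8 and 14.5 against 32.6 and 23.6 CPM. Cdx2, the transcription factor of intestinal identity, was at 533 and 338 against 231 and 204 CPM (log2 fold change -1.0, edgeR adjusted p = 0.167), and Ets2 was at 325 and 312 against 197 and 172 CPM (-0.79, edgeR adjusted p = 0.134). Nkd2, an inhibitor of Dishevelled, was at 3.90 and 28.2 against 8.37 and 4.82 CPM, high in library 8 with its smooth muscle markers. Target genes of Wnt signaling thus lay on both sides of 0, as did Axin2, Rnf43 and Znrf3.

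The genes whose profile over the 4 libraries was most like that of Lgr5 were Ephb3, Tcf7l2 and Tle4, with a root mean square difference of 0.09, 0.10 and 0.11 log2 units after each profile was centred, among 234 genes of the lists. Tcf7l2, the main TCF factor of the intestinal epithelium, was at 39.0 and 34.1 CPM in p53+/+ and at 58.8 and 43.3 CPM in p53-/- libraries. The genes most like Olfm4 were Cd3d (0.65), Lef1 (0.78) and Lck (0.79), which are T cell genes or are made by T cells, and none of the 234 lay as close to Olfm4 as the first 3 did to Lgr5. Cd3d was at 1.05 and 0.584 CPM in p53+/+ and at 5.04 and 9.40 CPM in p53-/- libraries, below Olfm4 in every library. Next in likeness to Olfm4 were Onecut2 (0.98), a gut segment marker, and Aqp4 (1.05), of the crypt base list. Lef1 rests on 2 counts in each p53+/+ library. Profiles were centred but not scaled, so genes with differences of similar size lie close, and only genes of the chosen lists were compared. The likeness rests on 4 libraries and is a description of these profiles.

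Notch and BMP signals act on the same cells. Of 13 Notch pathway genes tested, 9 were positive with a median of 0.14 (0.31 without library 8 and 0.23 without library 9), 1 was higher and 2 lower at an unadjusted p under 0.05, 0 passed the adjusted threshold in edgeR and 1 was higher with DESeq2. Notch1, the main Notch receptor of crypt stem cells, was at 11.1 and 12.6 CPM in p53+/+ and at 21.3 and 23.2 CPM in p53-/- libraries (log2 fold change 0.91, edgeR adjusted p = 0.145). Its target Hes1 was at 31.0 and 30.04 against 29.1 and 38.4 CPM (0.14), the ligand gene Jag2 at -1.06 and Dll4 at -0.56 (0.04 without library 7). The 15 BMP pathway genes had a median of -0.13 (-0.32 without library 7 and 0.25 without library 8), with 0 at an unadjusted p under 0.05 in either direction and 0 in edgeR and DESeq2. The BMP targets Id1 (0.40) and Id3 (0.30) were among them, and the antagonist Grem1 was at 167 CPM in library 8 against 19.4 to 45.1 CPM in the other 3.

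Proliferation genes, which the transit cells above the stem cells make most, were positive in 18 of 18 cases (median log2 fold change 0.96), 16 of them without overlap between genotypes. In edgeR 0 passed the adjusted threshold, 11 were higher and 0 lower at an unadjusted p under 0.05, and DESeq2 called 8 higher. Among all genes tested, 49.3% were positive, 26.4% were higher without overlap and 10% were higher at an unadjusted p under 0.05 in edgeR. Mki67 was at 55.9 and 37.4 CPM in p53+/+ and at 138 and 136 CPM in p53-/- libraries (log2 fold change 1.55, edgeR adjusted p = 0.0646), and Top2a had a log2 fold change of 1.57. Dividing lymphocytes also make these genes, and T cell markers were higher in the same libraries. Without library 10 the median of the list was 0.78, and without library 8, in which smooth muscle markers were high, it was 0.67. The part of lymphocytes in the proliferation genes was not tested. Enterocyte markers, which belong to differentiated villus cells, had a median of -0.73 over 11 genes (-0.40 without library 7), with 0 higher and 3 lower at an unadjusted p under 0.05, 0 past the adjusted threshold in edgeR and 4 lower with DESeq2. Lgr5 (0.67) was positive and Ascl2 (-0.82) negative, with intervals that included 0 for both. Whether either gene follows the proliferation or the enterocyte genes was not tested.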

How the data were processed

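Libraries were made from poly(A) RNA of the SI of 2 p53+/+ and 2 p53-/- mice, and the table the authors deposited holds raw, unnormalized read counts. The submitters' processing notes name fastp, HISAT2 2.0.5, featureCounts 1.5.0-p3 and DESeq2 1.20.0. The genome build and the strand setting of the counting are not given in the sources used here, so overlapping and near-identical genes could share reads. The column names give the genotype and a library number but not the replicate of the labels. Counts differed within each genotype beyond sampling noise (chi-square per degree of freedom 48.0 for p53+/+ and 69.5 for p53-/-) and each library was counted as 1 sample. The labels call them replicates without naming animals, and the study's methods describe its data points as biological replicates.

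In edgeR 4.0.16 (R 4.3.3), counts were scaled by TMM, filtered with filterByExpr and tested two-sided with the quasi-likelihood test (Benjamini-Hochberg, threshold 0.05). DESeq2 1.42.0 was an alternative. Intervals are at 95%. Tests were checked on simulated data. Levels per length use exon unions of GENCODE M21, which holds 91.8% of the gene identifiers. The other alternatives were RLE and upper-quartile factors, library size only, scaling by epithelial markers, no filter, at least 10 counts in every library, the likelihood ratio test, leaving out 663 antigen receptor segments, thresholds of 0.01 and 0.1, and each library left out.

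The 10 genes and 20 lists were chosen with earlier results of these data known. The neutrophil list and the RBPJ motif were added after values were seen. Named were the 10 genes and, from each list, genes past the threshold, the 2 most abundant and the 2 with the largest difference at an average log2 CPM of at least 1. Also named were the 3 genes most like Lgr5 and Olfm4, Trp53 and Phlda3, and further genes said to be chosen afterwards. Of the gene lists' members by this rule, those of markers for other cell types are given as summed levels.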

Additional observations from a re-analysis of the deposited data

How the results depend on the processing

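Single libraries and the scaling moved several values. Of 130 values of the 10 genes under 13 alternatives, 13 changed sign and 6, all of Olfm4, came to pass the threshold. Sign changes were those of Axin2 (0.24 scaled by epithelial markers, -0.48 to 0.029 with each library left out), Rnf43 (0.043 scaled by epithelial markers), Sox9 (0.0070 with upper-quartile factors, 0.024 with library size only, 0.40 scaled by epithelial markers, 0.0017 with no filter, 0.027 with at least 10 counts, -0.27 to 0.20 with each library left out), Lrig1 (-0.084 to 0.16) and Tnfrsf19 (-0.34 to 0.68), both with each library left out. Of the 10 genes, 1 was called higher when scaled by epithelial markers, with no filter, with the likelihood ratio test, with DESeq2 and at a threshold of 0.1, and 0 to 1 when each library was left out. Over all genes, calls higher and lower numbered 29 and 20 with upper-quartile factors, 26 and 20 with library size only, 131 and 15 scaled by epithelial markers, 1433 and 761 with no filter, 24 and 18 with at least 10 counts, 833 and 462 with the likelihood ratio test, 813 and 563 with DESeq2, 238 and 134 at a threshold of 0.1 and 4 and 2 at 0.01. They ranged from 0 to 680 higher and from 0 to 344 lower when each library was left out, with 0 of either kind without library 10. Over the listed genes, where 0 were called, 8 were higher scaled by epithelial markers, 48 higher and 21 lower with no filter, 32 and 9 with the likelihood ratio test, 34 and 13 with DESeq2, 1 higher without antigen receptor segments, 12 and 1 at a threshold of 0.1, and 0 to 29 higher and 0 to 12 lower when each library was left out. The cause of these differences was not tested. Leaving out a library leaves its genotype with 1, which is then assumed to vary like the other genotype. No paired analysis was possible because the columns carry no replicate number of the labels.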

Other observations

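The markers of gut segment differed between the libraries. Fabp6 and Slc10a2, the bile acid binding protein and transporter of the ileum, were at 5484 and 1836 CPM and at 1035 and 1294 CPM in p53+/+ and at 1639 and 2072 CPM and 785 and 717 CPM in p53-/- libraries. Fgf15, the ileal hormone that represses bile acid synthesis, was at 55.5 and 19.7 CPM in p53+/+ and at 4.56 and 6.62 CPM in p53-/- libraries, a log2 fold change of -2.75 (edgeR adjusted p = 0.106). Gata4, a factor of the proximal SI, was at 2.35 and 0.454 against 3.20 and 4.13 CPM. Of 7 segment markers tested, 5 had a negative log2 fold change (median -0.63, and -0.37 without library 7), with 0 past the adjusted threshold in edgeR, 1 higher and 4 lower at an unadjusted p under 0.05 and 3 lower with DESeq2. Crypt genes such as Olfm4 can differ in level along the SI, and the part of the position of each piece in the values above was not tested.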
